A study of Homo sapiens with 6 samples.

Results

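The genes described here are 10 transcription factors of the myeloid lineage, namely SPI1, CEBPA, CEBPD, RUNX1, RUNX3, GFI1, IRF8, IKZF1, MEIS1 and FLI1. They were taken by symbol from a table of 24960 genes, and each symbol was found. Their RNA was measured by sequencing in 6 libraries of K562 cells, an established line of chronic myeloid leukemia (CML) cells that carries the BCR::ABL fusion and grows in suspension. The control group held 3 libraries of cells labelled Control, and the hyperoside group held 3 libraries of cells that received hyperoside, a plant flavonol glycoside. The dose was 2 mM. The labels do not give the dose, which was taken from the description of the sequencing experiment. Both groups are the same leukemic line, which lacks a normal differentiation course, and the sources used here do not say how long the cells were treated before RNA extraction or whether the replicates were separate cultures. P-values therefore measure the spread between these libraries, which may be technical.

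In blood formation these factors act as a network. PU.1, the ETS family protein encoded by SPI1, directs cells toward the monocytic, granulocytic and lymphoid lineages and is opposed in erythroid cells by GATA1. The C/EBP proteins bind DNA as leucine zipper dimers and drive granulocyte development in stages, C/EBPα early and C/EBPε late. RUNX1 works with its partner CBFβ in stem cells, megakaryocytes and myeloid cells, GFI1 is a zinc finger repressor of granulocytic cells with an erythroid and megakaryocytic relative, GFI1B, and MEIS1 is a homeodomain protein of stem cells and leukemias that acts with HOX proteins.

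Library totals ran from 35613283 to 36754725 counts, and 15095 genes passed the filter on low counts and were tested. Control replicate 1 stood apart from its group, with a chi-square per degree of freedom of 20.3 and 23.1 against the other control libraries, which differed from each other by 6.34. Between 18754 and 19191 genes had a count in the control libraries and between 19542 and 19625 in the hyperoside libraries. The part of this difference in the results below was not tested. As a check of the label, the embryonic globin gene HBE1 was at 4773 FPKM in control cells and 3605 FPKM in treated cells, while CDKN2A and CDKN2B, which are deleted in K562 cells, had at most 1 count in any library.

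Of the 10 factors, 7 had enough counts to be tested, 4 were higher in treated cells, 1 was lower and 2 were not called. SPI1, RUNX1, IKZF1 and GFI1 rose and MEIS1 fell, at an adjusted p under 0.05 from edgeR's quasi-likelihood test over all tested genes. Across all tested genes, 22.1% were called higher and 23.2% lower by the same rule. CEBPA and CEBPD did not pass, and RUNX3, IRF8 and FLI1 had too few counts. In 6 of the 7 tested factors the libraries of the groups did not overlap, which was also the case in 54.4% of all tested genes. With a fold change above 2 required as well, GFI1 was called higher and MEIS1 lower, against 6.43% and 3.76% of all tested genes in these directions. The median log2 fold change of the 7 tested factors was 0.40 and that of all tested genes was 0.00. The libraries are bulk samples, so a change in the share of cells that express a gene and a change in its RNA per cell cannot be told apart.

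**Figure D1:**
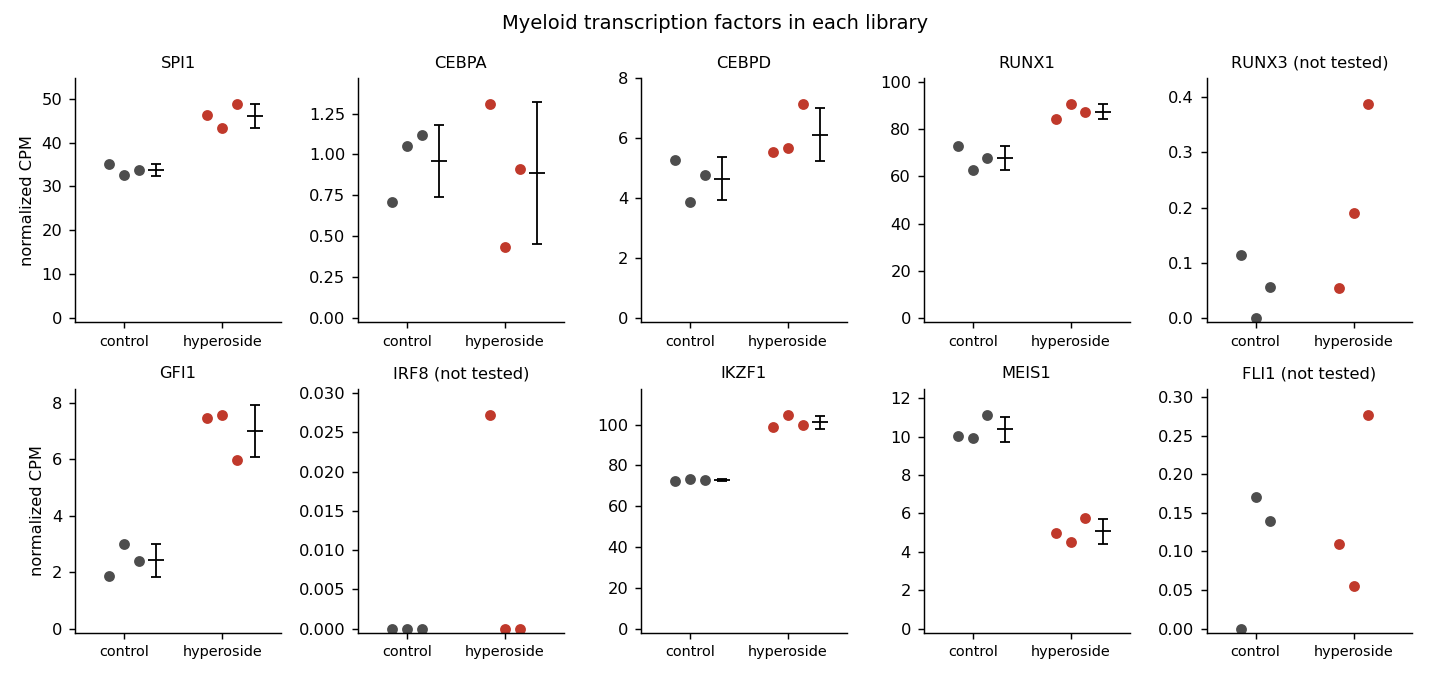
TMM-normalized level (CPM, y axis, linear) of the 10 factors in each of the 3 control (grey) and 3 hyperoside (red) libraries, with the mean and SD beside the points of the 7 tested factors. The hyperoside libraries lie above the control libraries for SPI1, CEBPD, RUNX1, GFI1 and IKZF1 and below them for MEIS1, and the groups overlap for CEBPA, RUNX3, IRF8 and FLI1.

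SPI1 lies on chromosome 11 of GRCh38 from 47354860 to 47378547. Its level, in counts scaled to a common library total after TMM normalization (CPM), was 35.1, 32.5 and 33.7 without and 46.2, 43.3 and 48.8 with hyperoside, given here and below in the order of replicates 1, 2 and 3. Each hyperoside library was above each control library. The means were 33.8 ± 1.30 and 46.1 ± 2.73 CPM (SD, n = 3 libraries each), and the fold change was 1.37, with a 95% interval from 1.20 to 1.55 (log2 fold change 0.45, standard error 0.09, edgeR adjusted p = 0.000448). Per length, SPI1 had the highest level of the 10 transcripts, at 10.7 FPKM in control cells and 15.2 FPKM in treated cells. The control mean of SPI1 exceeded that of RUNX1, the next in order, and the libraries of both genes did not overlap in either group.

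RUNX1 lies on chromosome 21 from 34787801 to 35049302, on the minus strand. It had 72.8, 62.6 and 67.7 CPM without and 84.4, 90.7 and 87.4 CPM with hyperoside. The lowest hyperoside library was above the highest control library, control replicate 1. The log2 fold change was 0.37 (standard error 0.08, edgeR adjusted p = 0.00105), which is a fold change of 1.29 with a 95% interval from 1.15 to 1.45. IKZF1 encodes Ikaros, a zinc finger protein of lymphoid and myeloid precursors that recruits the NuRD chromatin complex, and lies on chromosome 7 from 50303455 to 50405101. It had 72.6, 73.4 and 72.8 CPM without and 98.7, 104.8 and 99.7 CPM with hyperoside. The control values spanned less than 1 CPM, a coefficient of variation of 0.587% where counting error alone gives 1.97%. The log2 fold change of IKZF1 was 0.47 (standard error 0.07, edgeR adjusted p = 4.52e-05), a fold change of 1.39 with a 95% interval from 1.25 to 1.54. These changes in SPI1, RUNX1 and IKZF1 were small beside those of other genes. Of the 3333 genes called higher, 67.4% had a larger fold change than SPI1, 77.5% a larger one than RUNX1 and 65.0% a larger one than IKZF1. Exons of IKZF1 also overlap an antisense gene in GENCODE 29.

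GFI1 moved most among the tested factors. The gene lies on chromosome 1 from 92473043 to 92486925, on the minus strand. It had 65, 106 and 86 counts without and 274, 278 and 215 with hyperoside, or 1.85, 3.01 and 2.41 against 7.47, 7.57 and 5.95 CPM. The lowest hyperoside library had nearly 6 CPM, above each control library. The fold change was 2.89 with a 95% interval from 2.12 to 3.93 (log2 fold change 1.53, standard error 0.21, edgeR adjusted p = 1.47e-05), and 13.4% of the genes called higher had a larger fold change. The coefficient of variation of GFI1 was 24% in the control group, where counting error alone gives 10.8%. Without control replicate 1, its lowest library, the log2 fold change was 1.37 (edgeR adjusted p = 7.07e-06). GFI1 remained a transcript of low level, at 0.385 ± 0.0974 FPKM in control cells and 1.15 ± 0.156 FPKM in treated cells (SD, n = 3 each).

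MEIS1 was the factor that fell. It lies on chromosome 2 with a start at 66435125 and an end at 66573869 (plus strand). Its level was 10.04, 9.94 and 11.1 CPM without and 4.96, 4.49 and 5.76 CPM with hyperoside. The highest hyperoside library was well under the lowest control library, and the mean stood at 48.9% of that without hyperoside. On the log2 scale the change was -1.03 (standard error 0.15, edgeR adjusted p = 3.18e-05) with a 95% interval from -1.36 to -0.71, so the interval spans the 2-fold threshold. MEIS1 passed the 2-fold rule as reported but not without control replicate 3 (-0.98), without hyperoside replicate 2 (-0.95), with upper-quartile factors (-0.99) or on the FPKM scales, while its adjusted p stayed under 0.05 in these settings. Of the 3508 genes called lower, 15.1% had a larger decrease. Exons of MEIS1 overlap the antisense genes MEIS1-AS2 and MEIS1-AS3 in GENCODE 29, and the use of strand in counting is not given in the sources used here. MEIS1-AS3 had at most 1 count in any library.

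CEBPD, the gene of C/EBPδ, lies on chromosome 8 from 47736913 to 47738164. It had 5.29, 3.86 and 4.79 CPM without and 5.53, 5.69 and 7.14 CPM with hyperoside. The groups did not overlap, but control replicate 1 and hyperoside replicate 1 differed by only 17 counts (186 against 203). The log2 fold change of 0.40 had a standard error of 0.19 and an edgeR adjusted p of 0.0928 (unadjusted p = 0.0481), so CEBPD was not called. Without control replicate 1 the log2 fold change was 0.50 and the edgeR adjusted p 0.0452, and over all alternatives the adjusted p ran from 0.0343 to 0.296. CEBPA, the gene of C/EBPα on chromosome 19 from 33299934 to 33302534 on the minus strand, had 25, 37 and 40 counts without and 48, 16 and 33 with hyperoside. The hyperoside libraries lay on both sides of the control libraries. Its log2 fold change was -0.12 with a 95% interval from -1.09 to 0.86 (edgeR adjusted p = 0.857), so neither a halving nor an increase to 1.8 times could be told from no change. The coefficient of variation of CEBPA was 22.8% in control cells and 49.3% in treated cells, where counting error alone gives 17.1% and 17.6%. Exons of CEBPA overlap antisense genes in GENCODE 29, and CEBPA-DT, the divergent transcript of its promoter, had at most 4 counts in any library.

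The 7 fold changes were recomputed under 15 alternatives, which changed the normalization, the filter, the test or the unit or left out a library. The log2 fold change ranged from 0.42 to 0.49 for SPI1, from 0.32 to 0.43 for RUNX1, from 0.43 to 0.51 for IKZF1, from 0.63 to 1.71 for GFI1 and from -1.12 to -0.60 for MEIS1. These 5 genes were called in the same direction each time, and the values nearest 0 for GFI1 and MEIS1 came from the log2(FPKM + 1) scale, which shrinks the change of low genes.

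**Figure D2:**
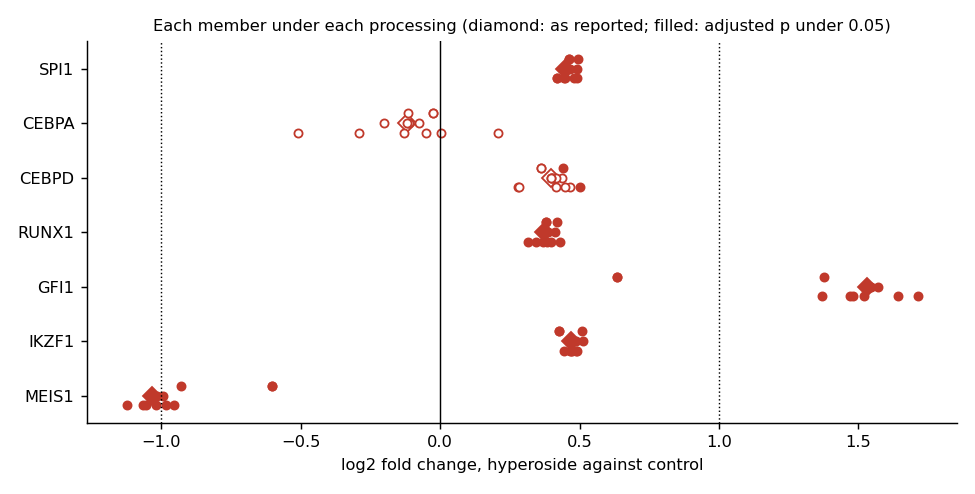
Log2 fold change of each tested factor (x axis) as reported (diamond) and under each alternative processing (circles, with FPKM scales above the line and left-out libraries below it), filled at an adjusted p under 0.05, with dotted lines at a 2-fold change. SPI1, RUNX1, GFI1, IKZF1 and MEIS1 keep their direction and filled points throughout, CEBPD is filled in 3 alternatives, and CEBPA lies on both sides of 0.

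The remaining factors were at or near the limit of detection. IRF8, an interferon regulatory factor of monocytes and dendritic cells on chromosome 16, had 0 counts in each control library and 1, 0 and 0 counts in the hyperoside libraries. A count of 0 allows up to 3 counts, or about 0.03 FPKM of IRF8, and this limit covers counting error only. FLI1, an ETS factor of megakaryocytes on chromosome 11, had 0, 6 and 5 counts without and 4, 2 and 10 with hyperoside. RUNX3, the RUNX gene of lymphocytes and macrophages on chromosome 1, had 4, 0 and 2 counts without and 2, 7 and 14 with hyperoside. The groups overlapped for IRF8, FLI1 and RUNX3 alike. The summed counts of RUNX3 were 6 in the control group (exact 95% Poisson interval 2.20 to 13.1) and 23 in treated cells (14.6 to 34.5), and 14 of the 23 came from replicate 3. When the filter on low counts was dropped, the log2 fold change of RUNX3 was 1.84 with an edgeR adjusted p of 0.305, and no difference in these genes was detectable. RUNX3-AS1, a transcript antisense to RUNX3, had 1, 2 and 4 counts without and 3, 3 and 8 with hyperoside, and RUNX1-IT1, an intronic transcript of RUNX1, had at most 3 counts in any library.

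Per length, the order of levels in the control group was SPI1, RUNX1, IKZF1, CEBPD, MEIS1, GFI1, CEBPA, FLI1, RUNX3 and IRF8. Neighbours whose libraries overlapped were IKZF1 (3.81 FPKM) with CEBPD (3.64 FPKM), and GFI1 (0.385 FPKM) with CEBPA (0.360 FPKM), besides the genes near 0. In the hyperoside group GFI1 (1.15 FPKM) stood beside MEIS1 (1.13 FPKM), with overlapping libraries, and above CEBPA (0.343 FPKM), with which it no longer overlapped. MEIS1 had been at 2.23 FPKM in the control group. FPKM divides by the gene length used by the authors, which was 18789 bases for IKZF1 and 3091 bases for SPI1, so the place of IKZF1 in this order rests on a length that may exceed that of its main transcript. SPI1 lay at the 72nd percentile of the tested genes by mean FPKM, GFI1 at the 22.5th and CEBPA at the 14.3rd.

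**Figure D3:**
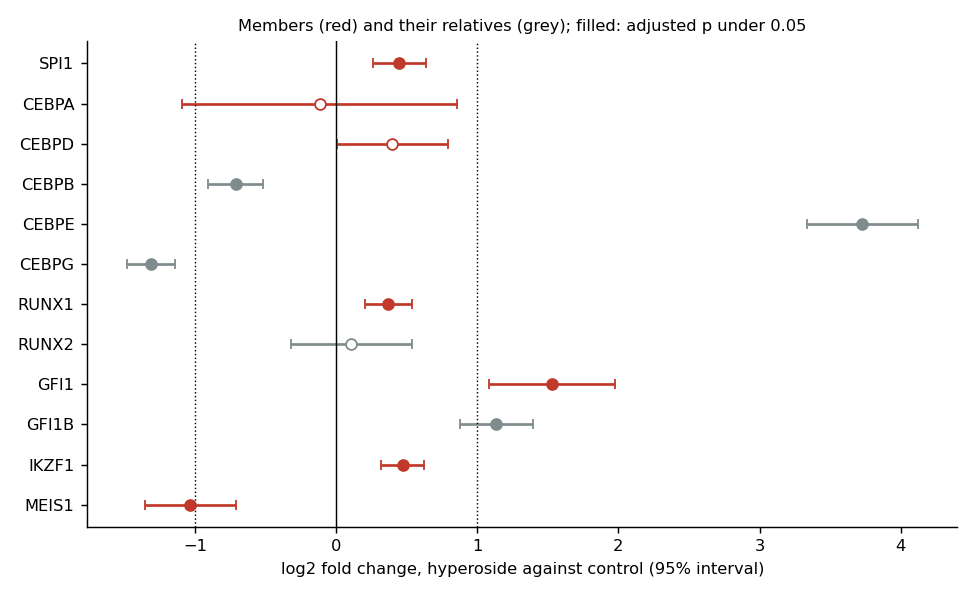
Log2 fold change of hyperoside against control (x axis) with its 95% interval for the 7 tested factors (red) and for close relatives in the C/EBP, RUNX and GFI1 families (grey), with filled points at an edgeR adjusted p under 0.05 and dotted lines at a 2-fold change. CEBPE stands farthest to the right at 3.73, GFI1 is at 1.53 and GFI1B at 1.14, while CEBPG and MEIS1 lie beyond the 2-fold line on the left.

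Upstream sequences were available for 7 of the 10 factors in RefSeq (GRCh38.p14), and those of GFI1, RUNX1, IKZF1 and MEIS1, the called factors among them, are printed because they show the letters before an annotated transcript start of genes that moved. Each run holds the 250 bases before the start that the RefSeq promoter table gives, 5′ to 3′ on the gene's own strand. For GFI1 and MEIS1 this start is the outer end of the gene range given above. For RUNX1 and IKZF1 the window lies inside that range, before an internal start, and which start the cells used was not measured. Capitals mark matches on either strand. The first motif searched was GGAA, the core bound by ETS proteins such as PU.1. A longer PU.1-type site, GAGGAA, contains that core and overlaps it wherever it occurs. The RUNX site was searched as TGTGGT and the MEIS site as TGACAG. The C/EBP site was searched as TTGCNNAA, a pair of interferon response half-sites for IRF proteins as GAAANNGAA, and the site of GATA1 as AGATAA. The windows are chr1:92486926-92487175 on the minus strand for GFI1, chr21:34888700-34888949 on the minus strand for RUNX1, chr7:50304466-50304715 on the plus strand for IKZF1 and chr2:66434875-66435124 on the plus strand for MEIS1.
GFI1: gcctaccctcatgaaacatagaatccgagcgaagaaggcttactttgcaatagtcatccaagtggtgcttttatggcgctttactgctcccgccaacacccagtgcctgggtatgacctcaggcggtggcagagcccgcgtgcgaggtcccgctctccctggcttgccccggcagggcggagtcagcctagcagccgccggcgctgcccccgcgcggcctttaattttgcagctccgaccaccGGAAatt
RUNX1: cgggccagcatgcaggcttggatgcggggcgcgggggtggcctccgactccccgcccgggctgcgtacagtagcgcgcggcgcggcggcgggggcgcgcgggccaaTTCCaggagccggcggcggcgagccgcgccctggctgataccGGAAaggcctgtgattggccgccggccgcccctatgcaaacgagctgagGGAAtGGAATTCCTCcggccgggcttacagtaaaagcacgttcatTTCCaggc
IKZF1: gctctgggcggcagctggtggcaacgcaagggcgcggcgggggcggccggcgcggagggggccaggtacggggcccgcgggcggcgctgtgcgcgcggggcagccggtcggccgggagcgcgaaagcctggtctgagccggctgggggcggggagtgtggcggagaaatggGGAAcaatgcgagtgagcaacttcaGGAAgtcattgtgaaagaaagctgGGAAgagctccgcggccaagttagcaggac
MEIS1: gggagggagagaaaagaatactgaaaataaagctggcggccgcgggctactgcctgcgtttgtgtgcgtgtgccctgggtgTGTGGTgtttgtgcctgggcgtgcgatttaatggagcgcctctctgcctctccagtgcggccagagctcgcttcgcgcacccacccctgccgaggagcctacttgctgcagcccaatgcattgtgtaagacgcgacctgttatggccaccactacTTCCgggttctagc

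The GFI1 window held 1 GGAA match, from base -7 to -4 before the start. The RUNX1 window held 6, among them the single GAGGAA match of these windows, from base -44 to -39 on the opposite strand. The IKZF1 window held 3 GGAA matches, and the MEIS1 window held 1, with a TGTGGT match from base -169 to -164. None of the 4 windows held the C/EBP, IRF, GATA1 or MEIS letters. Of 35116 upstream windows of the same length, 92.7% held the ETS core, so that a match to it is common to nearly all windows. The PU.1-type site was in 23.6% of them, the RUNX site in 11%, the C/EBP site in 9.05%, the IRF pair in 6.88%, the GATA1 site in 9.17% and the MEIS site in 13%. RUNX1 and IKZF1 also shared a GC content of 71.2% in this window, with 61.2% for GFI1 and 59.6% for MEIS1. A match describes letters only, and no binding was measured.

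In the C/EBP family the relatives CEBPE, CEBPB and CEBPG were called, while CEBPA and CEBPD were not, and the difference between relatives and factors was not tested. CEBPE, the gene of the late granulocytic C/EBPε, had 36, 36 and 32 counts without and 440, 457 and 531 with hyperoside. The hyperoside libraries were thus far above the control libraries, with 13.04 ± 1.45 against 0.981 ± 0.0737 CPM (SD, n = 3 each) and a log2 fold change of 3.73 (standard error 0.19, edgeR adjusted p = 9.2e-11). CEBPB and CEBPG, whose products are a monocytic and stress-responsive C/EBP and a partner without an activation domain, moved the other way. CEBPB had 90.3, 74.3 and 84.4 CPM without and 54.4, 45.4 and 52.3 CPM with hyperoside, and CEBPG had 111.9, 119.0 and 130.5 CPM without and 49.3, 46.0 and 50.4 CPM with it. The treated libraries were the lower ones for both genes. CEBPB fell by 0.71 on the log2 scale (edgeR adjusted p = 7.31e-06) and CEBPG by 1.31 (edgeR adjusted p = 1.56e-09).

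The make-up of the family was compared as each gene's share of the summed FPKM of CEBPA, CEBPB, CEBPD, CEBPE and CEBPG. CEBPE held 1.16%, 1.28% and 0.997% without and 19.3%, 22.04% and 22.5% with hyperoside. CEBPD held 5.12% ± 0.555 in control cells and 9.48% ± 0.969 in treated cells, and CEBPG went from 38.8% ± 3.29 to 21.96% ± 0.614 (SD, n = 3 each). Each of these shares separated the groups without overlap and reached p = 0.1, which is the lowest value an exact permutation of 3 against 3 libraries (two-sided) can give (adjusted p = 0.22 over 11 such comparisons). CEBPA held 0.507% ± 0.125 and 0.644% ± 0.301 of the family (exact permutation p = 0.5). The shares are tied to each other, since a lower level of any gene raises the shares of the rest. Mean FPKM went from 38.65 to 24.45 for CEBPB and from 27.58 to 11.49 for CEBPG. CEBPD itself went from 3.64 to 4.97 FPKM and was not called. The decrease of the CEBPB share from 54.4% to 46.7% turned into an increase of 2.95 percentage points when counts were not divided by gene length. In the same setting the rise of the CEBPE share was 10.5 percentage points instead of 20.1.

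**Figure D4:**
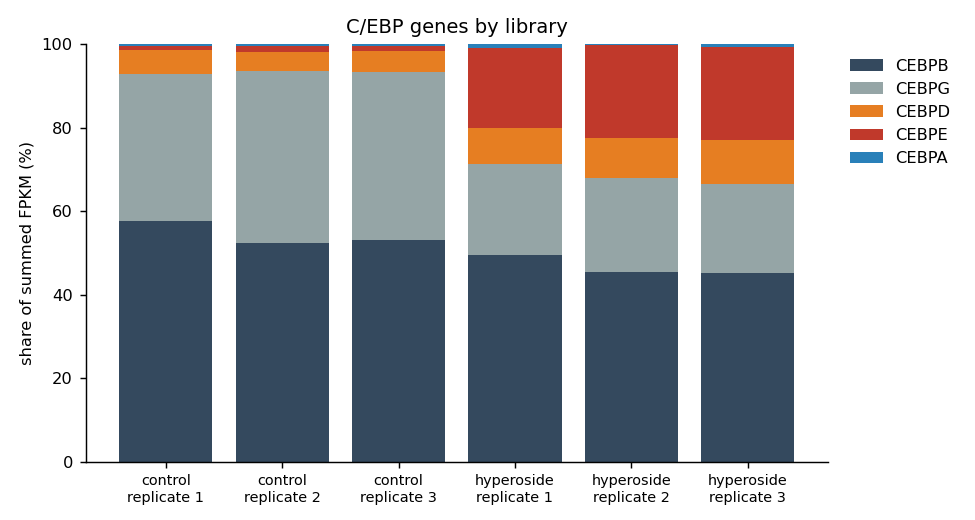
Share of the summed FPKM of 5 C/EBP genes (y axis, percent) held by each gene in each of the 6 libraries (stacked bars). The CEBPE segment is 0.997% to 1.28% in the control libraries and 19.3% to 22.5% in the hyperoside libraries, and the CEBPG segment shrinks from a mean of 38.8% to 21.96%.

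Within the GFI1 pair both genes rose together. GFI1B, the erythroid and megakaryocytic relative, had 22.2, 16.2 and 18.2 CPM without and 37.5, 48.4 and 38.7 CPM with hyperoside, a log2 fold change of 1.14 (standard error 0.12, edgeR adjusted p = 9.21e-07). GFI1 held 4.20%, 8.91% and 6.53% of the summed FPKM of both genes without and 9.50%, 7.62% and 7.5% with hyperoside. These shares overlapped between the groups (exact permutation p = 0.4), so the pair's proportions were not shown to differ. The difference of 1.66 percentage points was 0.491 without control replicate 1, 2.85 without control replicate 2, 1.02 without hyperoside replicate 1 and 2.82 with counts not divided by length. In the RUNX family RUNX1 held 88.7% ± 3.39 in control cells and 90.2% ± 0.775 in treated cells (SD, n = 3 each, exact permutation p = 0.4). That difference of 1.49 percentage points was 3.45 without control replicate 1, 0.446 without control replicate 2 and 0.585 without control replicate 3. RUNX2, the bone factor, was not called (log2 fold change 0.11, edgeR adjusted p = 0.694). The log2 ratio of SPI1 to GATA1 FPKM was -3.28, -3.08 and -3.03 without and -2.56, -2.80 and -2.53 with hyperoside. SPI1 thus stayed well under GATA1 in each library, and the ratio was higher by 0.499 in treated cells (exact permutation p = 0.1, the smallest possible), while GATA1 itself was not called (log2 fold change -0.06, edgeR adjusted p = 0.619).

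Over all listed relatives, 31 of 32 were in the table and 26 were tested, with 7 higher and 5 lower. These are 26.9% and 19.2% of the tested relatives, close to the 22.1% and 23.2% of all tested genes. The median log2 fold change of the relatives was 0.06. ELF4, an ETS factor of lymphoid and myeloid cells, was higher at 0.46 on the log2 scale (edgeR adjusted p = 8e-05), and IRF9, a subunit of the interferon-activated ISGF3 complex, was lower at -0.70 (edgeR adjusted p = 0.000281). Of 616 other tested genes annotated as RNA polymerase II transcription factors in the deposited gene ontology column, 28.1% were higher and 20.3% lower, beside 57.1% and 14.3% of the 7 tested factors. With 7 genes, these shares are a description.

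Partners and corepressors of the factors were tested for 18 of 20 listed genes, with 7 higher and 4 lower. These are 38.9% and 22.2% of them, beside 22.1% and 23.2% of all tested genes. The median log2 fold change of the partners was 0.09. CBFA2T3, an ETO family corepressor, had 32.4, 27.4 and 27.5 CPM without and 75.96, 86.2 and 76.3 CPM with hyperoside (log2 fold change 1.45, edgeR adjusted p = 2.17e-09). TRIB1, a pseudokinase that promotes the breakdown of C/EBPα protein, was higher at 0.79 on the log2 scale (edgeR adjusted p = 8.09e-06). HOXA9, the HOX partner with which MEIS1 is known in leukemia, had no count in any library. CBFB, which encodes the RUNX partner CBFβ, was not called (log2 fold change 0.14, edgeR adjusted p = 0.206). DDIT3, which encodes CHOP, a C/EBP family partner induced by endoplasmic reticulum stress, fell from 261.3 ± 22.01 to 106.4 ± 9.27 CPM (SD, n = 3 each), by 1.30 on the log2 scale (edgeR adjusted p = 2.11e-09). RCOR1, which encodes CoREST, a corepressor that acts with GFI1, was lower at -0.34 (edgeR adjusted p = 0.0012). KDM1A, the histone demethylase gene of the list, was not called (log2 fold change 0.07, edgeR adjusted p = 0.392). BATF3, a partner of IRF8 in dendritic cells, was lower at -2.08 (edgeR adjusted p = 0.00661). It had 39, 36 and 24 counts without and 13, 3 and 8 with hyperoside.

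Genes that PU.1 or IRF8 is known to activate in monocytes and macrophages were tested for 21 of 29 listed genes, of which 28 were in the table. Of those tested, 14 were higher and 1 was lower, or 66.7% and 4.76%, beside 22.1% and 23.2% of all tested genes. The median log2 fold change of the list was 0.96. CYBB, the catalytic subunit of the phagocyte oxidase, was higher at 2.64 on the log2 scale (edgeR adjusted p = 9.53e-10), and ITGB2, the β2 integrin chain of leukocytes, had 3.53, 4.72 and 2.60 CPM without and 14.3, 15.8 and 18.1 CPM with hyperoside (log2 fold change 2.15, edgeR adjusted p = 5.44e-08). LAPTM5, a lysosomal protein of blood cells, had 266.7, 281.1 and 242.3 CPM without and 509.4, 499.2 and 521.5 CPM with hyperoside (log2 fold change 0.95, edgeR adjusted p = 1.15e-08). FCGR2A, an Fc receptor, was the called gene that fell (log2 fold change -0.64, edgeR adjusted p = 2.26e-06). Markers of monocytes and macrophages in the list did not move alike. CSF1R, the receptor of macrophage colony-stimulating factor, was higher at 1.81 on the log2 scale but low, with 16, 5 and 6 counts without and 35, 30 and 34 with hyperoside (edgeR adjusted p = 0.0123). MNDA was higher at 1.96, ITGAM, the integrin chain CD11b, at 0.83, LYZ, which encodes lysozyme, at 0.53 and CD68 at 0.34 on the log2 scale (edgeR adjusted p = 0.000799, 8.15e-06, 3.02e-05 and 0.00123). Another 6 tested genes of the list were not called. CD33, BTK, FCGR1A and CYBA had log2 fold changes of 0.09, -0.01, -0.09 and -0.20 (edgeR adjusted p = 0.46, 0.95, 0.869 and 0.0503). NCF1 and MSR1 had 1.54 and 0.99 (edgeR adjusted p = 0.0898 and 0.0656). The 7 genes of the list that were in the table but not tested, CD14, FCER1G and TLR4 among them, had at most 7 counts in any library. The summed level of the list was 973.1 to 1076 CPM in the control libraries and 1303 to 1406 CPM in the hyperoside libraries. LAPTM5 was the most abundant gene in this sum, with means of 263.4 CPM without and 510 CPM with hyperoside. The means of FCGR2A went from 198.9 to 127.9 CPM and those of CYBA from 153.8 to 133.8 CPM.

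**Figure D5:**
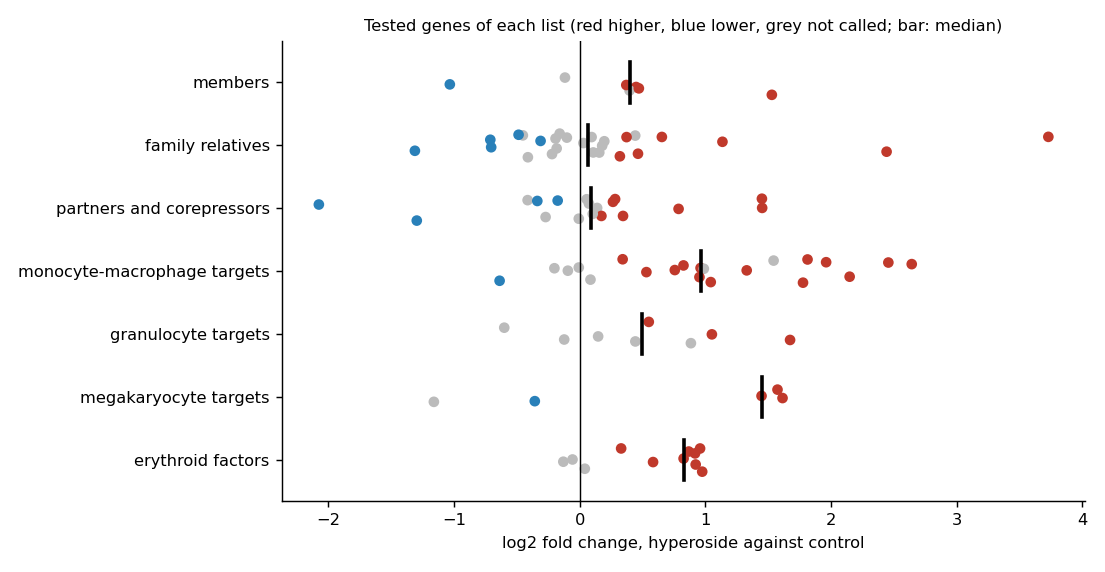
Log2 fold change of hyperoside against control (x axis) of the tested genes in the list of 10 factors and in the lists of relatives, partners, lineage targets and erythroid factors (rows), red for higher and blue for lower at an edgeR adjusted p under 0.05, grey for not called, with a bar at each median. The medians lie at 0.40 for the 7 tested factors, 0.06 for relatives, 0.09 for partners and 0.96 for monocyte and macrophage targets. Those of granulocyte targets, megakaryocyte targets and erythroid factors lie at 0.50, 1.45 and 0.83.

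Granulocyte genes known as targets of C/EBP proteins, RUNX1 or GFI1 mostly had low counts. Of 19 listed genes 16 were in the table and 8 were tested. By edgeR 3 (37.5%) were higher and 0 lower, beside 22.1% and 23.2% of all tested genes. None of the 8 was lower at an unadjusted p under 0.05 (0 genes), and DESeq2 and limma also called 0 lower. The median log2 fold change was 0.50. ANPEP, the aminopeptidase CD13, was higher at 1.05 on the log2 scale (edgeR adjusted p = 6.87e-07), LTF, the secondary granule protein lactoferrin, at 1.67 (edgeR adjusted p = 0.000115), and FUT4, the enzyme that makes the CD15 antigen, at 0.55 (edgeR adjusted p = 0.0013). LTF was still low, with 69, 31 and 59 counts without and 184, 136 and 204 with hyperoside. MPO and ELANE, which encode the primary granule enzymes myeloperoxidase and neutrophil elastase, had at most 10 and 6 counts in any library and were not tested. PRTN3 and AZU1 of the same list were tested and not called. PRTN3 had 24, 52 and 26 counts without and 73, 58 and 64 with hyperoside (log2 fold change 0.89, edgeR adjusted p = 0.0622). The log2 fold change of AZU1 was 0.15 (edgeR adjusted p = 0.661). CSF3R, LCN2 and IL6R were also tested and not called. Their log2 fold changes were 0.44, -0.60 and -0.12 (edgeR adjusted p = 0.121, 0.504 and 0.797). LCN2 was low, with 20, 26 and 7 counts without and 18, 2 and 16 with hyperoside.

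Megakaryocyte and platelet genes known as FLI1 or RUNX1 targets were tested for 5 of the 10 in the table, with 3 higher, 1 lower and a median of 1.45 on the log2 scale. The calls are 60% and 20% of only 5 genes, beside 22.1% and 23.2% of all tested genes. TUBB1, the platelet β1 tubulin, was higher at 1.61 on the log2 scale (edgeR adjusted p = 3.16e-09), ITGB3, the platelet β3 integrin, at 1.57 (edgeR adjusted p = 3.05e-07) and GP6, the collagen receptor, at 1.45 (edgeR adjusted p = 0.00104). ITGA2B, the integrin chain that pairs with ITGB3, was lower at -0.36 (edgeR adjusted p = 0.0196), a call that was lost without control replicate 1, hyperoside replicate 1 or hyperoside replicate 2 and on the FPKM scales. GP1BA had no count in any library.

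Most of the factors in the erythroid and megakaryocytic list were higher. All 11 were tested, and 8 were higher and 0 lower by edgeR, with 0 lower at an unadjusted p under 0.05 and 0 lower by DESeq2 or limma. The 8 are 72.7% of the list, beside 22.1% of all tested genes called higher and 23.2% called lower. The median log2 fold change of the 11 was 0.83. LYL1 was higher at 0.92, MYB at 0.83 and NFE2 at 0.87 on the log2 scale (edgeR adjusted p = 1.43e-07, 1.5e-07 and 1.49e-06). The 3 not called were GATA1, TAL1 and LDB1 (log2 fold change -0.06, 0.04 and -0.13, edgeR adjusted p = 0.619, 0.679 and 0.194). In the same cells 4 of 7 tested K562 markers (57.1%) were lower, beside 23.2% of all tested genes. Among the 4 were the γ-globin genes HBG1 at -0.87 and HBG2 at -0.80 on the log2 scale (edgeR adjusted p = 3.18e-06 and 2.34e-06), whose nearly identical copies can share reads. EPOR, the erythropoietin receptor, was higher at 1.22 (edgeR adjusted p = 4.65e-07). Markers of lymphoid, epithelial and fibroblast cells were tested for 7 of the 13 in the table. Of the 7, 2 were higher and 1 lower (28.6% and 14.3%, beside 22.1% and 23.2% of all tested genes). The summed level of these markers was 114.0 to 127.8 CPM in the control libraries and 125.2 to 127.5 CPM in the hyperoside libraries, mostly from EPCAM and CD3D. CD3D was higher at 0.29 and CD3G at 1.40, and COL1A1 was lower at -0.99 on the log2 scale (edgeR adjusted p = 0.0249, 0.0238 and 0.00711), while MS4A1, EBF1 and CD2 had at most 2 counts in any library. The part of these markers in the results for the factors was not tested.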

How the data were processed

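RNA of K562 cells was sequenced in 6 libraries, 3 labelled Control and 3 labelled Hyperoside. The deposited gene counts are raw, and the authors deposited a second table of FPKM values in which the counts are divided by gene length and library total. Per the labels' processing notes the tools included fastp, HISAT2 and HTSeq, with build hg38. Versions, annotation and strand setting are not given in the sources used here.

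The 10 factors and the gene lists were chosen with earlier results of these data known. Counts were fitted in edgeR 4.0.16 (R 4.3.3) after filterByExpr (minimum count 10, minimum total 15) and TMM, with condition as the only term and Benjamini-Hochberg adjustment over 15095 genes. Calls were made at an adjusted p under 0.05, or with a fold change above 2 as well. Standard errors are the log2 fold change over the square root of F, and intervals are 95%. CPM are TMM-scaled. All columns were matched to a sample by label. The text names every factor and, per list, up to 3 called genes in either direction, in order of adjusted p. Other genes named (HBE1, CDKN2A, CDKN2B, CBFB, KDM1A, GATA1, TAL1, LDB1, RUNX2, HOXA9, CSF1R, MNDA, ITGAM, LYZ, CD68, CD33, BTK, FCGR1A, CYBA, NCF1, MSR1, CD14, FCER1G, TLR4, MPO, ELANE, PRTN3, AZU1, CSF3R, LCN2, IL6R, GP1BA, EPCAM, MS4A1, EBF1 and CD2) were chosen after their values were seen, as was the gene ontology set. Some genes that the rule names are not reported here. Alternatives used DESeq2 1.42.0 and limma 3.58.1, and shares and the SPI1 to GATA1 ratio were compared by exact permutation in scipy 1.17.1. The steps were tested on simulated counts. Protein sequences were not used here. Pathway, Reactome and WikiPathways columns were not analysed here. Exon overlaps came from GENCODE 29 and gene positions from RefSeq, both on GRCh38.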

Additional observations from a re-analysis of the deposited data

How the results depend on the processing

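SPI1, RUNX1, GFI1, IKZF1 and MEIS1 were called in the same direction under each of 15 alternatives, which covered normalization, filter, test, unit, the replicate block and each library left out. The number of factors higher was 4 to 5, the fifth being CEBPD, which was called without control replicate 1 (0.50) and with limma-trend on log2(FPKM + 0.1) (0.44) and log2(FPKM + 1) (0.36). CEBPA reversed without control replicate 3 (0.004) and without hyperoside replicate 2 (0.209), with no call in either direction and a range of -0.508 to 0.209 with libraries left out. Fold changes of low genes shrink on the log2(FPKM + 1) scale, where GFI1 had 0.63 and the factors above 2-fold were 0 up and 0 down, with or without the filter. The 2-fold call of MEIS1 was also lost, leaving 0 down, with upper-quartile factors, on log2(FPKM + 0.1) and in 2 of the left-out libraries (range 0 to 1).

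The sources used here do not say whether the replicate numbers pair the libraries. The correlation of deviations from the group mean was -0.081, -0.033 and -0.034 for libraries of the same number. For libraries of different numbers it ran from -0.027 to 0.064. With 3 libraries in each group, values near 0 cannot decide whether libraries of the same number were handled together. With the replicate block, 4 factors were higher and 1 lower, and GFI1 had a log2 fold change of 1.54. Partners called lower were 4 as reported and 2 to 4 over the alternatives, with 3 in most of them and 2 with a mean of at least 50 counts. Partners called higher were 7 as reported and 5 to 8 over the alternatives. Monocyte and macrophage targets called lower were 2 without the filter and with DESeq2, and 1 to 2 with libraries left out, the 2 being without control replicate 3. Megakaryocyte targets called lower were 0 on all 3 FPKM scales and 0 to 1 with libraries left out. The CEBPA share reversed without hyperoside replicate 1 (-0.0167 percentage points, range to 0.284 with libraries left out), and the CEBPB share with raw counts (2.95). The causes were not tested. RUNX3, IRF8 and FLI1 had too few counts to pass the filter, and upper-quartile factors moved the median of all genes to 0.04. The number of all genes above 2-fold was 970 up and 567 down as reported, 208 and 136 on log2(FPKM + 1), 204 and 137 there without the filter, and 633 and 368 with a mean of at least 50 counts, where CEBPA has no value.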
